A study of Homo sapiens with 4 samples.

Results

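Of the 20289 genes in the deposited table, 10 that belong to the platelet-derived growth factor (PDGF), fibroblast growth factor (FGF), vascular endothelial growth factor (VEGF) and hepatocyte growth factor (HGF) systems are described here. They were taken by symbol: the receptor genes PDGFRA, PDGFRB, KDR, FGFR1 and MET, and the ligand genes PDGFC, VEGFA, VEGFC, FGF2 and FGF5. The list was chosen by symbol at a time when the ratios between these same 4 libraries were known, so their values are descriptions and carry no test. The RNA came from SUM159-R, a paclitaxel-resistant derivative of the human triple-negative breast cancer line SUM159 that the labels give as wild type and as kept in 150 nM paclitaxel. The cells were exposed for 24 h to 500 nM paclitaxel with 2.5 µM enzastaurin (the combination), to 500 nM paclitaxel, to 2.5 µM enzastaurin, or to DMSO. Paclitaxel stabilises microtubules, and enzastaurin inhibits protein kinase C (PKC). Each condition has 1 library, with 18236527 to 24699948 counts, so no difference below can be set against a spread between cultures and no p-value is given. Whether the resistant line is 1 clone, and whether its maintenance paclitaxel was withdrawn before treatment, the labels do not say.

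These receptors are tyrosine kinases of the cell surface. A ligand brings receptor chains together, the chains phosphorylate each other, and adaptors such as GRB2 and SHC1, the phospholipase PLCG1 and phosphoinositide 3-kinase dock on the phosphorylated tyrosines. The phospholipase releases diacylglycerol, which activates conventional PKC isozymes, the family that enzastaurin inhibits. PDGFRA and PDGFRB are best known from mesenchymal cells, KDR (VEGF receptor 2) from endothelium, and MET from epithelium and carcinoma.

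The cells carried the markers of a mesenchymal-like carcinoma line, and 2 epithelial keratin genes were well counted too. All 6 genes of the mesenchymal-like list had at least 20 counts, with summed levels of 9353 to 11524 CPM (counts scaled to a common library size) across the libraries. Of 6 epithelial markers, KRT8 had 5812 to 8055 counts and KRT18 had 5678 to 7177. The others, EPCAM, CDH1, KRT19 and CLDN4, did not reach 20 counts. PGR was at 0 in all 4 libraries and ESR1 had at most 3 counts. ERBB2 had 1179 to 2058 counts. Of 8 endothelial markers, ERG and PECAM1 reached 20 counts, and the summed level of the list was 36.0, 35.0, 28.7 and 31.3 CPM in the combination, paclitaxel, enzastaurin and DMSO. PECAM1 had 31, 54, 21 and 19 counts in the combination, paclitaxel, enzastaurin and DMSO, and was higher by at least 2-fold, with a counting interval off 0, for combination over DMSO (log2 ratio 1.03, 0.16 to 1.94) and for paclitaxel over DMSO (1.37, 0.59 to 2.21). ERG, which makes up most of the sum, was at 0.17 (0.01 to 0.33) for combination over DMSO. CDH5, TEK, TIE1, VWF and CLDN5 had at most 4 counts in any library. Of 8 pericyte and fibroblast markers 6 reached 20 counts, with summed levels of 257 CPM in the combination, 289 in paclitaxel, 320 in enzastaurin and 297 in DMSO. In bulk RNA, fewer cells that express a gene and less RNA of that gene per cell cannot be told apart.

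Sequence windows at a RefSeq transcript start of 4 of the genes are shown first, because these genes differed most between the libraries. PDGFRB and KDR were lower in the combination library, VEGFC was higher there, and PDGFRA was higher in both libraries with paclitaxel. The windows are from RefSeq (GRCh38.p14) and run from 250 bases before to 50 bases after a transcript start. These starts are not all those of GENCODE 29, which gave the gene coordinates below. The GENCODE start of PDGFRA, 54229097, lies inside the window shown. Most of that window, with its AP-1 motif, is therefore within the GENCODE gene. The GENCODE start of VEGFC, 176792727, lies downstream of its whole window. They lie at chr5:150155796-150156095 (minus strand) for PDGFRB, chr4:55125546-55125845 (minus strand) for KDR, chr4:176792873-176793172 (minus strand) for VEGFC and chr4:54229043-54229342 (plus strand) for PDGFRA, for which the upstream one of 2 listed windows is shown. Each is written 5′ to 3′ on the gene's strand, and capitals mark the motifs found.
PDGFRB: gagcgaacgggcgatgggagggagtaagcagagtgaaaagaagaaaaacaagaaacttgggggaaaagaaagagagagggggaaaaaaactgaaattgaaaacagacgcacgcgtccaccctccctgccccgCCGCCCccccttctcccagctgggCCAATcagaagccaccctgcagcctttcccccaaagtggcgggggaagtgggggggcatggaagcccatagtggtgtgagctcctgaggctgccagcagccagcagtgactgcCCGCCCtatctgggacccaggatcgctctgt
KDR: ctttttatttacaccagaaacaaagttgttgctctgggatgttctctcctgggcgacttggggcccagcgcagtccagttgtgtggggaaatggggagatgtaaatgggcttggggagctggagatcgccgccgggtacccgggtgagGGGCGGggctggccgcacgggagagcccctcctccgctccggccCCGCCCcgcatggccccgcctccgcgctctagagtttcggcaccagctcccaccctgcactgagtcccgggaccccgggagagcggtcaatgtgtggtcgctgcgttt
VEGFC: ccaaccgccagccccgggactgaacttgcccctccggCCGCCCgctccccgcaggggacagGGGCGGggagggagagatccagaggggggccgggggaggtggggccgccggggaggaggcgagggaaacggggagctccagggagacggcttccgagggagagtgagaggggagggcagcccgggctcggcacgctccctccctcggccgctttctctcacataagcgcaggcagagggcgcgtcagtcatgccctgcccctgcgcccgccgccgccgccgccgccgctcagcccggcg
PDGFRA: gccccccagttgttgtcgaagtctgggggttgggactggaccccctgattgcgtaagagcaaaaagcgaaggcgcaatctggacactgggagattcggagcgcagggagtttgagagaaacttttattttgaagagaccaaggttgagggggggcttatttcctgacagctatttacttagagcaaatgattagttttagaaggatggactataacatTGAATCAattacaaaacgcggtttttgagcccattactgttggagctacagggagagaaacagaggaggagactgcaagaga

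The motifs searched on both strands were the GC box GGGCGG, the CCAAT box CCAAT, the AP-1 motif TGANTCA, the TEAD motif GGAATG and the hypoxia response core ACGTG. No match overlapped another in the 4 windows. PDGFRB had 2 GC boxes and 1 CCAAT box, KDR had 2 GC boxes and VEGFC had 2 GC boxes, while the PDGFRA window printed had 1 AP-1 motif and no GC box. The second listed PDGFRA window, 54233710 to 54234009, had 2 GC boxes, 1 CCAAT box and no AP-1 motif, so the motifs of PDGFRA depend on the window read. A GC box is common: it is in 15786 of the 35116 windows of the table, a CCAAT box in 34.6%, an AP-1 motif in 7.71%, a TEAD motif in 14.0% and a hypoxia core in 21.4%. PDGFRB and KDR, which were low in the same library, shared the GC box and no other of the 5 motifs. The GC box was also in at least 1 window of each other member searched: VEGFC, PDGFRA, MET, FGF2 and FGF5. MET and FGF2 had 3 each. The part of any motif in the differences between libraries was not tested. Among the 7 members searched, MET was the only one whose window held a hypoxia core, with 2. The 7 genes were PDGFRA, PDGFRB, KDR, MET, VEGFC, FGF2 and FGF5. Member windows on chromosome 8, where FGFR1 lies, were left out of the search, so nothing is said of FGFR1. PDGFC and VEGFA had no listed window.

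Levels of different genes are compared in FPKM, the deposited unit that is scaled for transcript length. In the combination library MET had the highest level, 37.2 FPKM, followed by VEGFA with 30.1 FPKM, PDGFRA with 21.2 FPKM and FGFR1 with 15.8 FPKM. FGF2 with 13.9 FPKM and VEGFC with 13.1 FPKM came next and had overlapping counting intervals. PDGFC had 3.76 FPKM and PDGFRB 1.23 FPKM, and FGF5 with 0.29 FPKM and KDR with 0.28 FPKM overlapped at the low end. The order differed in the DMSO library, where VEGFA with 37.9 FPKM and MET with 37.2 FPKM overlapped, FGFR1 with 18.9 FPKM stood above PDGFRA with 14.1 FPKM, and PDGFRA overlapped FGF2 with 13.5 FPKM. VEGFC had 8.45 FPKM there, PDGFC 4.19 FPKM and PDGFRB 2.29 FPKM, and KDR with 0.80 FPKM stood above FGF5 with 0.45 FPKM. The principal ligand of MET was scarcely detected, since HGF had 11, 18, 18 and 19 counts in the combination, paclitaxel, enzastaurin and DMSO.

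**Figure D1:**
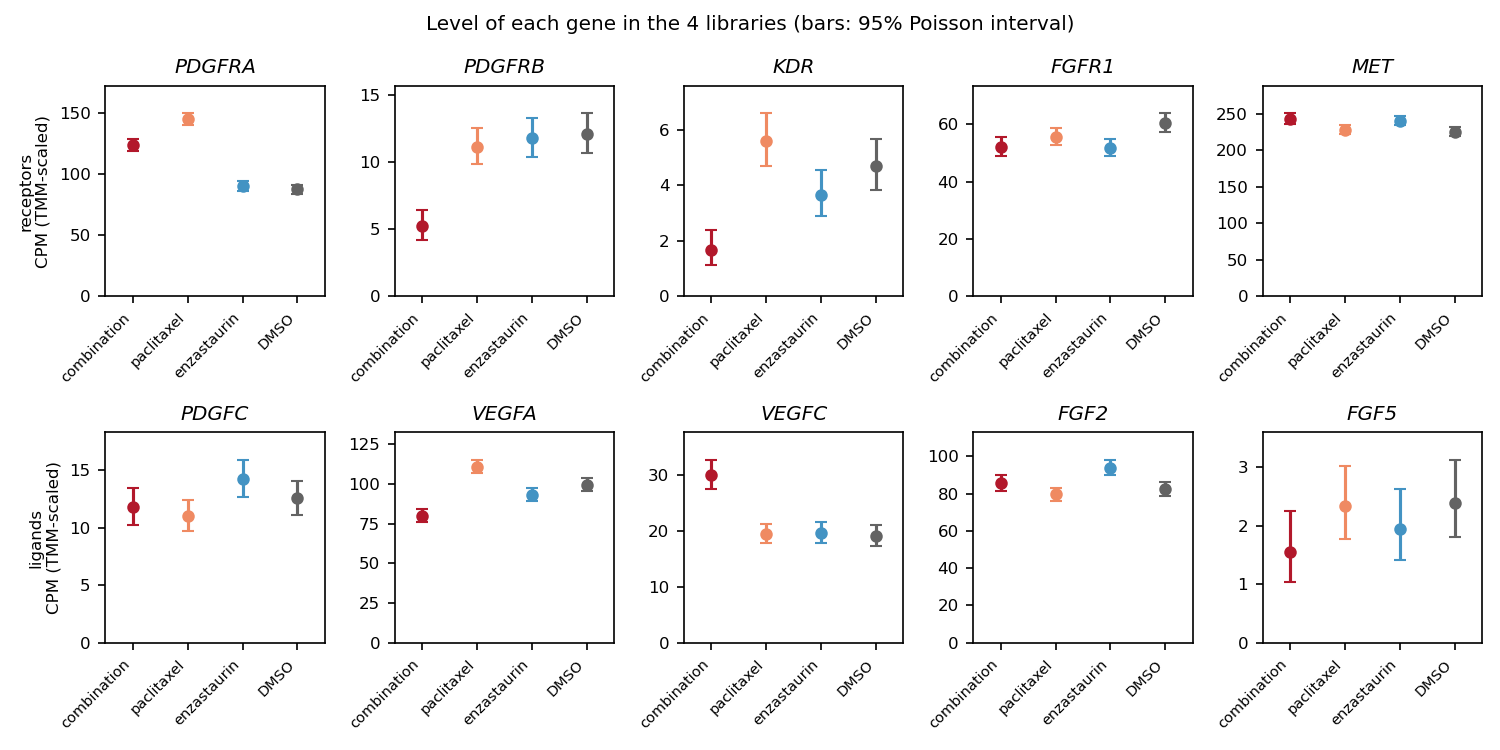
Level of each gene in CPM, computed from TMM-scaled counts, in the combination, paclitaxel, enzastaurin and DMSO libraries. Points are single libraries and bars are 95% Poisson intervals for counting error. PDGFRB (5.22 CPM) and KDR (1.66 CPM) are lowest and VEGFC (30.0 CPM) is highest in the combination library.

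Changes between libraries are given as log2 ratios of TMM-scaled counts with a 95% interval for counting error. A gene passed the size rule when it differed by 2-fold or more, its interval excluded 0, and 20 counts or more were present in the higher library. All 10 genes had at least 20 counts in every library. Against DMSO, the combination had 0 members higher and 2 lower, PDGFRB and KDR. Of 11677 genes tested in that contrast, 1.03% were higher and 5.61% lower by the same rule. Against paclitaxel, 0 were higher and the same pair of genes was lower, where 0.58% and 4.21% of 11734 genes were. Against enzastaurin, 0 were higher and PDGFRB and KDR were again lower, where 0.945% and 5.52% of 11643 genes were. These 3 contrasts share the combination library, so they are not independent of each other. With paclitaxel alone over DMSO, 0 of the 10 passed, where 0.815% of 11777 genes were higher and 0.433% lower. With enzastaurin alone over DMSO, 0 passed, where 0.445% of 11683 genes were higher and 0.454% lower.

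Differences of any size, with an interval off 0 in either direction, were common among all genes at this depth and among the members as well. The counts and shares that follow include genes past the size rule, such as PDGFRB and KDR. For combination over DMSO 3 members were above 0 and 4 below, where 30.2% and 33.1% of all genes were. For combination over paclitaxel 3 were above and 4 below, where 28.0% and 31.0% of all genes were. For combination over enzastaurin 2 were above and 5 below, where 30.7% and 33.0% of all genes were. For paclitaxel over DMSO 2 were above and 1 below (all genes 15.9% and 17.1%), and for enzastaurin over DMSO 2 above and 2 below (all genes 15.2% and 16.0%).

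The medians of the 10 log2 ratios were near those of all genes tested. The members' median was -0.15 for combination over DMSO, where that of all genes was -0.03, and -0.16 for combination over paclitaxel, where that of all genes was -0.02. It was -0.18 for combination over enzastaurin (all genes -0.02), -0.01 for paclitaxel over DMSO (all genes -0.0008) and 0.0006 for enzastaurin over DMSO (all genes -0.002). The members differed widely from each other, and their log2 ratios for combination over paclitaxel ran from -1.75 for KDR to 0.63 for VEGFC. Over all genes tested, the 5th and 95th percentiles of that ratio were -0.95 and 0.43.

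**Figure D2:**
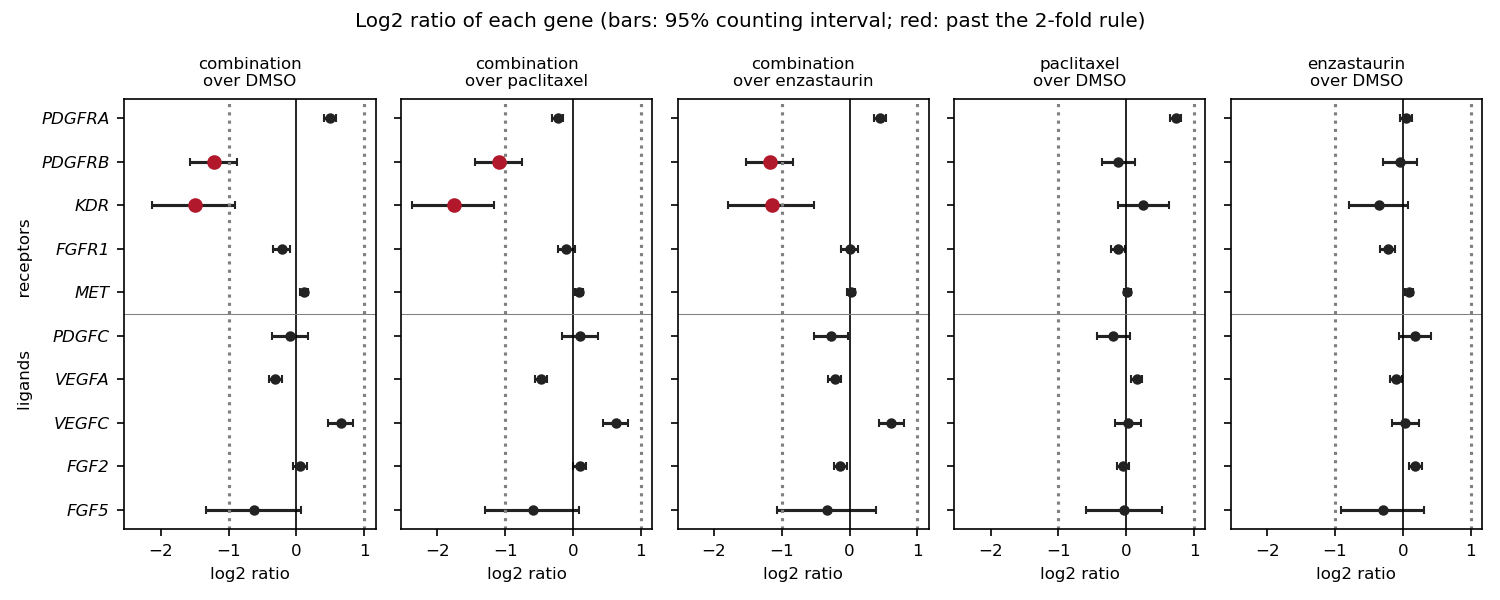
Log2 ratio of each gene in the 5 contrasts, receptors above and ligands below the thin line, with 95% intervals for counting error. Red points passed the 2-fold size rule (dotted lines), which PDGFRB and KDR did in each contrast that holds the combination library.

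PDGFRB (ENSG00000113721; hg38 chromosome 5, 150113837 to 150155872, minus strand) encodes the beta receptor for PDGF-B and PDGF-D. It had 94 counts in the combination, against 277 in paclitaxel, 260 in enzastaurin and 273 in DMSO. The combination library stood apart, at 5.22 CPM, and the intervals of the other levels overlapped, at 11.1 CPM in paclitaxel, 11.8 in enzastaurin and 12.1 in DMSO. The log2 ratio was -1.21 (-1.57 to -0.87) for combination over DMSO, -1.10 (-1.45 to -0.75) for combination over paclitaxel and -1.17 (-1.53 to -0.83) for combination over enzastaurin. By counts, neither drug alone gave a difference beyond counting error, with -0.12 (-0.36 to 0.13) for paclitaxel over DMSO and -0.04 (-0.29 to 0.21) for enzastaurin over DMSO.

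The deposited FPKM values of PDGFRB gave a smaller difference than its counts, at 1.23 in the combination, 1.99 in paclitaxel, 2.72 in enzastaurin and 2.29 in DMSO. On the log2(FPKM + 0.1) scale the ratio was -0.85 for combination over DMSO and -0.65 for combination over paclitaxel, both short of 2-fold, and -1.08 for combination over enzastaurin. For the single drugs over DMSO it was -0.19 with paclitaxel and 0.24 with enzastaurin, the latter outside its interval from counts. Dividing counts by FPKM gives a quantity proportional to the transcript length by which RSEM scaled the gene, which changes when reads are assigned to isoforms of other lengths. Relative to DMSO and to the median gene, it was 0.794 for PDGFRB in the combination, 1.067 in paclitaxel and 0.824 in enzastaurin. The 5th to 95th percentile range over 9613 well counted genes was 0.891 to 1.11 in the combination, 0.910 to 1.10 in paclitaxel and 0.925 to 1.11 in enzastaurin. PDGFRB therefore lay below that range in both libraries with enzastaurin and within it in paclitaxel. The marker genes CSPG4 and ACTA2, which like PDGFRB are known from pericytes, were also lower by the size rule for combination over DMSO, at -1.19 and -1.11. Of the other 4 counted genes of that list, RGS5 was at 0.88 (0.25 to 1.54), DCN at 0.82 (0.66 to 0.99), PDPN at -0.03 (-0.10 to 0.05) and COL1A1 at -0.77 (-0.90 to -0.65), so the list did not lie on 1 side of 0. The part of a pericyte-like expression state in the PDGFRB result was not tested.

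**Figure D3:**
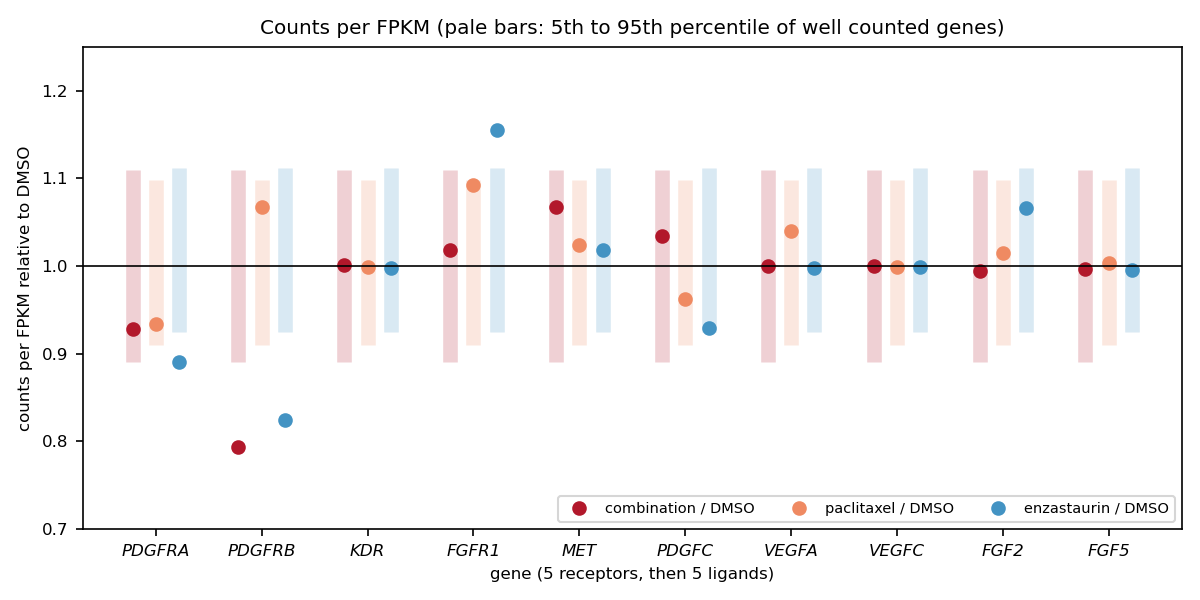
Counts per FPKM of each gene in the combination, paclitaxel and enzastaurin libraries, each relative to DMSO and to the median of 9613 genes with at least 100 counts and 1 FPKM in every library. Pale bars span the 5th to 95th percentile of those genes. PDGFRB in the combination and enzastaurin, FGFR1 in enzastaurin and PDGFRA in enzastaurin lie outside them.

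KDR (ENSG00000128052; chromosome 4, 55078259 to 55125595, minus strand) encodes the main signalling receptor for VEGF-A. It had 30 counts in the combination, 139 in paclitaxel, 81 in enzastaurin and 106 in DMSO. The level was 1.66 CPM (1.12 to 2.38) in the combination, and its interval lay below those of paclitaxel at 5.59 CPM, enzastaurin at 3.67 and DMSO at 4.69. The log2 ratio was -1.75 (-2.37 to -1.17) for combination over paclitaxel, -1.50 (-2.13 to -0.90) for combination over DMSO and -1.14 (-1.80 to -0.52) for combination over enzastaurin. For the single drugs it was 0.25 (-0.12 to 0.63) with paclitaxel and -0.36 (-0.79 to 0.08) with enzastaurin. FPKM moved in step with counts for KDR, at 0.28, 0.96, 0.63 and 0.80 in the combination, paclitaxel, enzastaurin and DMSO, and counts per FPKM were 0.997 to 1.00 of the DMSO value. With so few counts the size of the KDR difference is known only within these intervals.

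PDGFRA (ENSG00000134853; chromosome 4, 54229097 to 54298247, plus strand) encodes the alpha receptor, which binds PDGF-A, PDGF-B and PDGF-C. It had 2227 counts in the combination, 3597 in paclitaxel, 1991 in enzastaurin and 1971 in DMSO. The levels were 124 CPM in the combination, 145 in paclitaxel, 90.2 in enzastaurin and 87.3 in DMSO. Both libraries with paclitaxel were above both without it. The log2 ratio of paclitaxel over DMSO was 0.73 (0.65 to 0.81), a 1.66-fold difference, and that of combination over enzastaurin, measured in the other pair of libraries, was 0.45 (0.37 to 0.54). Enzastaurin alone gave 0.05 (-0.04 to 0.14) from counts and 0.22 on log2(FPKM + 0.1), and combination over paclitaxel gave -0.23 (-0.30 to -0.15). The 5th and 95th percentiles of all genes tested were -0.33 and 0.37 for paclitaxel over DMSO, and PDGFRA lay above that range.

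PDGFRA shares 1533 exonic bases on the same strand with AC058822.1 (ENSG00000282278), which GENCODE 29 annotates as protein coding, so reads can be split between the 2 genes. AC058822.1 had 21 counts in the combination, 155 in paclitaxel, 10 in enzastaurin and 32 in DMSO. With the counts of both genes summed, paclitaxel over DMSO was at 0.77 and combination over enzastaurin at 0.46 on the log2 scale. Of 12 genes that neighbour PDGFRA and KDR in band 4q12, 9 had at least 20 counts, and none of these passed the size rule in any of the 5 contrasts; their median log2 ratio was 0.14 for paclitaxel over DMSO and -0.11 for combination over paclitaxel. The largest for combination over paclitaxel were CHIC2, at -0.57 (-0.90 to -0.25), and NMU, at -0.42 (-1.52 to 0.61).

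FGFR1 (ENSG00000077782; chromosome 8, 38400215 to 38468834, minus strand), a receptor for FGF2 and FGF5, had 939, 1385, 1147 and 1368 counts in the combination, paclitaxel, enzastaurin and DMSO. The levels were 52.1 CPM in the combination, 55.7 in paclitaxel, 51.9 in enzastaurin and 60.6 in DMSO. DMSO was the highest library, with log2 ratios of -0.22 (-0.34 to -0.10) for combination over DMSO, -0.12 (-0.23 to -0.01) for paclitaxel over DMSO and -0.22 (-0.34 to -0.11) for enzastaurin over DMSO. Counts per FPKM were 1.155 of the DMSO value in enzastaurin, above the percentile range given for that library. FGFR1 shares 138 exonic bases with LETM2 on the other strand, and the sum of both gave -0.25 for enzastaurin over DMSO. On log2(FPKM + 0.1) FGFR1 was at -0.42 for enzastaurin over DMSO, and with the length and GC trend removed it was at -0.06 for combination over DMSO.

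MET (ENSG00000105976; chromosome 7, 116672390 to 116798386, plus strand), the HGF receptor, had the most counts of the 10 genes, with 4376, 5659, 5303 and 5086 in the combination, paclitaxel, enzastaurin and DMSO. Its levels lay close together, at 243 CPM in the combination, 228 in paclitaxel, 240 in enzastaurin and 225 in DMSO. The log2 ratio was 0.11 (0.05 to 0.17) for combination over DMSO, 0.09 (0.04 to 0.15) for enzastaurin over DMSO and 0.02 (-0.04 to 0.07) for paclitaxel over DMSO. On log2(FPKM + 0.1) MET was at -0.003 for combination over DMSO, outside the interval from counts, and at 0.07 for enzastaurin over DMSO. MET had the narrowest intervals of the members, so the widest difference that counting error allows in any of the 5 contrasts is 0.17 on the log2 scale.

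Among the ligands, VEGFC was the member with the largest higher value in the combination. VEGFC (ENSG00000150630; chromosome 4, 176683538 to 176792727, minus strand) encodes the lymphangiogenic ligand of FLT4, which binds KDR once processed. It had 541 counts in the combination, 483 in paclitaxel, 433 in enzastaurin and 431 in DMSO, from libraries of unequal depth. Its level was 30.0 CPM (27.5 to 32.7) in the combination, apart from 19.4 CPM in paclitaxel, 19.6 in enzastaurin and 19.1 in DMSO, whose intervals overlapped. The log2 ratio was 0.65 (0.47 to 0.84) for combination over DMSO, 0.63 (0.45 to 0.81) for combination over paclitaxel and 0.61 (0.43 to 0.80) for combination over enzastaurin. The FPKM values followed, at 13.1, 8.66, 8.73 and 8.45 in the combination, paclitaxel, enzastaurin and DMSO.

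VEGFA (ENSG00000112715; chromosome 6, 43770184 to 43786487, plus strand), the ligand of FLT1 and KDR and a gene that hypoxia induces, differed from VEGFC in order. It had 1445 counts in the combination, 2760 in paclitaxel, 2060 in enzastaurin and 2250 in DMSO. The levels were 80.2 CPM in the combination, 111 in paclitaxel, 93.3 in enzastaurin and 99.6 in DMSO. The combination was the lowest library and paclitaxel the highest. The log2 ratio was -0.47 (-0.56 to -0.38) for combination over paclitaxel, -0.31 (-0.41 to -0.22) for combination over DMSO and 0.16 (0.08 to 0.24) for paclitaxel over DMSO. VEGFC and VEGFA therefore lay on opposite sides of 0 in the 3 contrasts that hold the combination.

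PDGFC (ENSG00000145431; chromosome 4, 156760454 to 156971394, minus strand), a PDGFRA ligand that proteases release from its inactive form, had 212, 273, 314 and 283 counts in the combination, paclitaxel, enzastaurin and DMSO. Its levels, 11.8 CPM in the combination, 10.98 in paclitaxel, 14.2 in enzastaurin and 12.5 in DMSO, gave an interval off 0 for combination over enzastaurin alone, at -0.27 (-0.53 to -0.02). FGF2 (ENSG00000138685; chromosome 4, 122826708 to 122898236, plus strand), basic FGF, had 1540, 1979, 2073 and 1862 counts in the combination, paclitaxel, enzastaurin and DMSO, or 85.5 CPM in the combination, 79.6 in paclitaxel, 93.9 in enzastaurin and 82.5 in DMSO. Its log2 ratio was 0.19 (0.10 to 0.28) for enzastaurin over DMSO, 0.10 (0.005 to 0.20) for combination over paclitaxel and -0.14 (-0.23 to -0.04) for combination over enzastaurin, so its intervals lay on both sides of 0. NUDT6 overlaps FGF2 on the other strand by 804 exonic bases, and the labels do not say whether the reads kept strand. NUDT6 had 85 counts in the combination, 147 in paclitaxel, 103 in enzastaurin and 140 in DMSO, and FGF2 and NUDT6 summed were at 0.15 for enzastaurin over DMSO. FGF5 (ENSG00000138675; chromosome 4, 80266599 to 80336680, plus strand) had 28 counts in the combination, 58 in paclitaxel, 43 in enzastaurin and 54 in DMSO. Its log2 ratio was -0.62 (-1.33 to 0.06) for combination over DMSO, and no FGF5 difference was detectable at this depth.

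**Figure D4:**
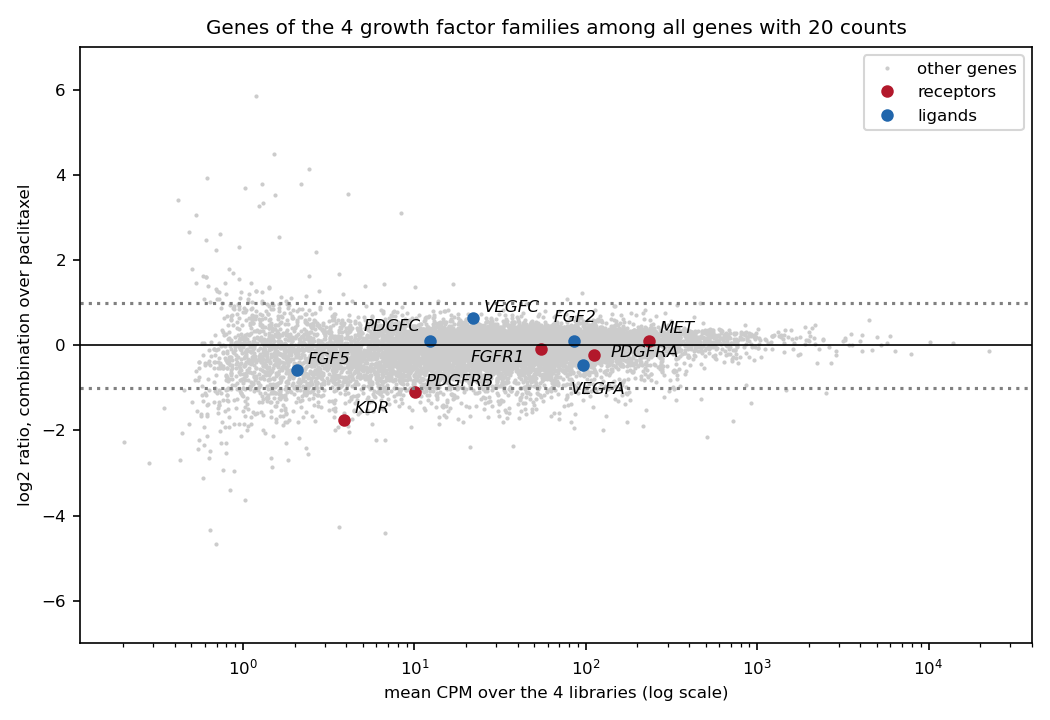
Log2 ratio of combination over paclitaxel against the mean level (log axis) for the 11734 genes with at least 20 counts in either library. KDR (-1.75) and PDGFRB (-1.10) lie below the lower dotted line at 2-fold, and VEGFC (0.63) lies above the 95th percentile of 0.43.

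Whether a drug acted alike with and without the other is described by the departure from additivity, the log2 effect of enzastaurin in paclitaxel-treated cells minus its effect in cells without paclitaxel. The departure was -1.39 (-2.10 to -0.69) for KDR and -1.06 (-1.47 to -0.64) for PDGFRB, so both genes were lower in the combination than the single-drug values add up to. Among 11150 genes with at least 20 counts in all 4 libraries, 3.56% departed by 2-fold or more in that direction with an interval off 0, and 0.377% in the other. VEGFA departed by -0.38 (-0.50 to -0.25) and PDGFRA by -0.27 (-0.39 to -0.16). VEGFC departed by 0.59 (0.33 to 0.85), above the 95th percentile of all genes, 0.48. Intervals of the other 5 genes held 0, and that of MET was the narrowest, at 0.00006 (-0.08 to 0.08). In all, 4 members had an interval below 0 and 1 above it, where 27.6% and 25.0% of genes did. On log2(FPKM + 0.1), FGFR1 departed by 0.40, outside its interval from counts, and PDGFRA by -0.46. With the length and GC trend removed MET departed by 0.10. The median departure was -0.18 over the members and -0.01 over all genes.

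**Figure D5:**
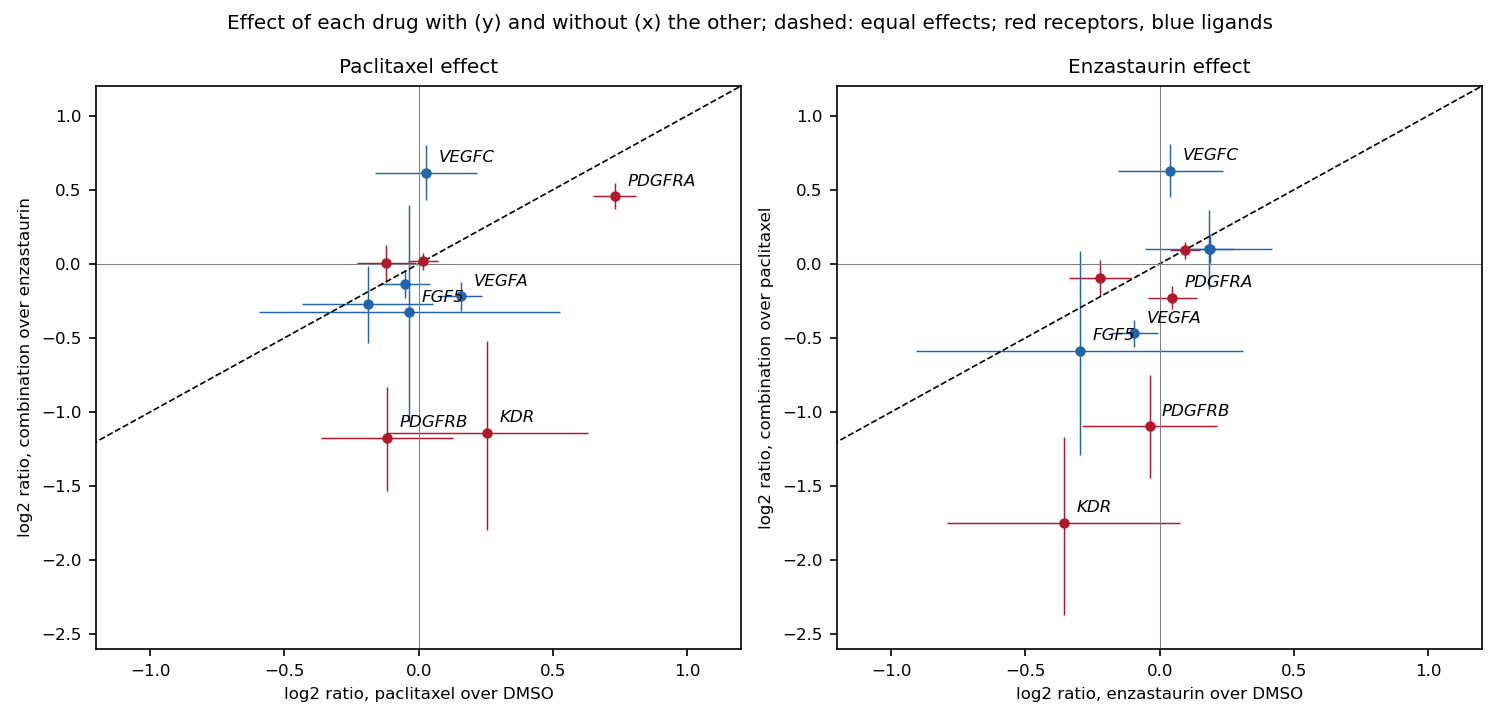
Left, log2 effect of paclitaxel with enzastaurin present (y axis) against its effect alone (x axis); right, the same for enzastaurin with and without paclitaxel. Red points are receptors, blue points ligands, bars are 95% intervals for counting error, and the dashed line marks equal effects. KDR and PDGFRB lie below the line, VEGFC lies above it, and the 2 ratios plotted for a gene share no library.

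The remaining genes of these pathways were read from lists, each with all of its genes in the table. Both PDGF ligand genes that reached 20 counts were lower for combination over DMSO by the size rule, of 4 other PDGF genes listed, where 5.61% of all genes tested were lower and 1.03% higher. PDGFA, a PDGFRA ligand, had 478, 1155, 1073 and 1267 counts in the combination, paclitaxel, enzastaurin and DMSO, a log2 ratio of -1.08 (-1.24 to -0.93) over DMSO. PDGFA did not pass for combination over paclitaxel, at -0.81 (-0.97 to -0.65), or over enzastaurin, at -0.87 (-1.03 to -0.72). PDGFB was lower by the rule in both of these, where 4.21% and 5.52% of all genes tested were. PDGFB, a ligand of both receptors, had 14 counts in the combination, 58 in paclitaxel, 40 in enzastaurin and 49 in DMSO, and its log2 ratio was -1.59 (-2.54 to -0.73) for combination over paclitaxel. PDGFC, by contrast, was at -0.09 (-0.35 to 0.17) for combination over DMSO.

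Of 5 other VEGF genes, VEGFB alone reached 20 counts, and it was at -0.07 (-0.23 to 0.09) for combination over DMSO; the receptor genes FLT1 and FLT4 did not reach 20 counts. Of 20 other FGF ligand genes 2 did, FGF13 at -0.95 (-1.69 to -0.25) and FGF11 at -0.34 (-1.21 to 0.49) for combination over paclitaxel, and neither passed the rule. Of 9 other FGF receptor and binding genes 2 reached 20 counts, FGFR3 at -0.40 (-1.61 to 0.73) and the kinase-less receptor FGFRL1 at -0.06 (-0.19 to 0.06). Of 10 genes of HGF, its relative MSP, their receptors and proteases, 3 were counted that well. The MSP gene MST1 passed the rule with a log2 ratio of -1.54 (-2.54 to -0.64) for combination over paclitaxel from 13 and 52 counts, though near-identical copies of it exist and its reads are uncertain. Of all genes tested, 4.21% were lower in that contrast. PLAT, tissue plasminogen activator, which activates PDGF-C, was at -0.39 (-0.49 to -0.29) for combination over paclitaxel. CCBE1, needed to process VEGF-C, was at -0.94 (-1.12 to -0.76) for combination over DMSO while its substrate's gene VEGFC was higher. CCBE1 was already at -0.73 (-0.88 to -0.58) for paclitaxel over DMSO, where VEGFC was at 0.03 (-0.16 to 0.22). For combination over paclitaxel CCBE1 was at -0.21 (-0.40 to -0.02). None of 4 counted processing genes passed the rule.

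Among 10 counted heparan sulfate co-receptor and neuropilin genes, 2 were lower and 0 higher by the rule for combination over paclitaxel, where 4.21% of all genes tested were lower and 0.58% higher. These were the syndecan gene SDC3, at -1.38 (-1.48 to -1.29), and the glypican gene GPC2, at -1.86 (-3.87 to -0.28) from only 4 and 20 counts. For combination over DMSO SDC3 was at -1.77 (-1.86 to -1.68) and GPC2 at -0.26 (-2.53 to 1.82). GPC2 was higher by the rule for paclitaxel over DMSO, at 1.60 (0.23 to 3.20). NRP1, a co-receptor of VEGF-A and KDR, was at -0.59 (-0.65 to -0.54) for combination over paclitaxel. Of 20 adaptor and effector genes, all counted, 3 were lower and 0 higher in that contrast. These were PIK3R2, a regulatory subunit of phosphoinositide 3-kinase, at -1.42 (-1.56 to -1.28), the kinase gene SRC at -1.02 (-1.199 to -0.85), and the FGF receptor adaptor FRS3 at -1.42 (-2.22 to -0.70). GRB2, SHC1 and PLCG1 were at -0.26, -0.09 and -0.27. Of 8 counted phosphatase and ubiquitin ligase genes none passed the rule in that contrast, and the endothelial phosphatase gene PTPRB was higher for enzastaurin over DMSO, at 1.03 (0.15 to 1.97) from 34 and 17 counts. Of all genes tested, 0.445% were higher for enzastaurin over DMSO.

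VEGFA is also read with the genes that hypoxia induces. Of 18 such genes with VEGFA left out, 0 were higher and 1 lower for combination over paclitaxel, with a median of -0.08. Of all genes tested, 0.58% were higher and 4.21% lower in that contrast. For combination over DMSO 1 was higher and 1 lower, with a median of 0.03, where 1.03% and 5.61% of all genes were. The listed genes that passed were the prolyl hydroxylase gene P4HA2, at -1.04 (-1.25 to -0.84) for combination over paclitaxel, and ANKRD37, at 1.16 (0.16 to 2.22) for combination over DMSO from 25 and 14 counts. Of 9 regulators of the hypoxia response, HIF1AN was lower for combination over DMSO, at -1.10 (-1.26 to -0.95), as was ARNT2, at -1.18 (-2.22 to -0.24), while HIF1A was at -0.13. Of 21 other receptor tyrosine kinase genes counted, 2 were lower and 0 higher for combination over DMSO. All genes tested had 5.61% lower and 1.03% higher there. The 2 were INSR, the insulin receptor, at -1.80 (-2.14 to -1.47), and AXL at -1.03 (-1.08 to -0.98). In paclitaxel over DMSO the collagen receptor gene DDR2 was higher in that list, at 1.08 (0.17 to 2.06) from 35 and 15 counts. Of all genes tested, 0.815% were higher in that contrast.

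For the 2 members past the size rule, the genes closest in pattern were found by the Euclidean distance of the 3 log2 ratios over DMSO, among 10338 genes with at least 100 counts in some library. Nearest to PDGFRB were TFAP2C at 0.06, MOSMO at 0.06 and MIDN at 0.07. MIDN, for example, had 553 counts in the combination, 1628 in paclitaxel, 1529 in enzastaurin and 1648 in DMSO. KDR had no gene so close, with CALCOCO1 at 0.21, DNAJC22 at 0.23 and PBXIP1 at 0.23. With 4 libraries the distance describes these values and no relation between the genes.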

How the data were processed

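RNA of SUM159-R cells, 1 library per condition, was copied to cDNA from random primers and read on a NovaSeq6000, per the labels. Whether a library pools several cultures the labels do not say. The authors deposited expected counts, not scaled for depth, and FPKM values, which the authors scaled for length and depth. RSEM and hg38 are named per the submitters' processing notes; their versions, the aligner and the annotation were not given in the sources used here. Columns were matched to conditions by treatment name, and 0 columns stayed unmatched.

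Expected counts were rounded to whole numbers and scaled with TMM factors (edgeR 4.0.16). Levels have exact Poisson intervals, and ratios have Clopper-Pearson intervals of the conditional share. Departures have normal intervals on the log scale from the 4 counts. All are 95% intervals for counting error only, and reads are not independent molecules. The fitted scaling and the size rule used the whole table. The code was run on simulated Poisson counts with known folds, which hold no spread between cultures and so do not test the differences reported. Members and lists were chosen with earlier results of these data known. Named list genes were those past the size rule, at most 4, or else the 2 largest for combination over paclitaxel, and other genes were named after their values were seen. Coordinates and overlaps are from GENCODE 29. Alternatives were DESeq2 1.42.0 size factors, library totals, other count and fold limits, FPKM with pseudocounts of 1 and 0.1, removal of a length and GC trend, thinning, and sums of overlapping genes, of which those for PDGFRA and FGFR1 were chosen after seeing the data. R was 4.3.3 and Python 3.11.15.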

Additional observations from a re-analysis of the deposited data

Results flagged for a closer look

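VEGFA was the member for which paclitaxel had effects of opposite sign with and without enzastaurin, each with a counting interval off 0. Its log2 ratio was -0.22 (-0.32 to -0.12) for combination over enzastaurin and 0.16 (0.08 to 0.24) for paclitaxel over DMSO. With 1 library per condition this difference was not tested.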

How the results depend on the processing

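No paired analysis was possible because 1 library stands for each condition, and for the same reason no library could be left out. Of 375 recomputed ratios and departures of the members, 339 stayed within the counting interval of the reported value and 36 did not. Most of those that left it came from FPKM: 18 left and 42 stayed with a pseudocount of 1, and 13 left and 47 stayed with 0.1. Removal of the length and GC trend gave the other 5, with 55 that stayed. DESeq2 size factors, library totals, thinning and sums of overlapping genes moved none, so the pooled share leans on settings close to the main one. The counts of members past the size rule, 2 in each combination contrast and 0 with either drug alone, held under DESeq2 size factors, library totals, no count minimum and thinning. The FPKM settings had no counting interval, so there the rule was the 2-fold limit with the count minimum. On FPKM with a pseudocount of 1 the 3 combination contrasts had 0 members, with or without the filter on low values, and with a pseudocount of 0.1 they had 1 each: KDR over DMSO and over paclitaxel, PDGFRB over enzastaurin. The log2 ratios with 0.1 were -0.85, -0.65 and -1.08 for PDGFRB, and -1.24, -1.48 and -0.94 for KDR, over DMSO, paclitaxel and enzastaurin. KDR lies under 1 FPKM, where a pseudocount shrinks ratios. With the length and GC trend removed 1 member remained for combination over paclitaxel, because PDGFRB moved to -0.98. A minimum of 100 counts left 1 for combination over enzastaurin, since KDR has 81 counts at most there. A limit of 1.5-fold added VEGFC in each combination contrast, to 3 members (1 higher and 2 lower), and PDGFRA, 1 member, for paclitaxel over DMSO.

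Over all genes, the counts past the rule were 775, 562, 753, 147 and 105 for combination over DMSO, over paclitaxel, over enzastaurin, paclitaxel over DMSO and enzastaurin over DMSO. In the same order they were 481, 307, 441, 26 and 12 with a minimum of 100 counts, 1979, 1545, 1985, 321 and 274 at 1.5-fold, 310, 185, 277, 27 and 20 on FPKM with a pseudocount of 1, and 311, 185, 279, 28 and 21 without its filter. The FPKM numbers used the 2-fold limit without a counting interval. With no count minimum the single drugs had 262 and 220.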
